A study of Mus musculus with 6 samples.

Results

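The cytosolic ribosomal protein genes encode the protein part of the ribosome. They were taken as all symbols that start with Rpl or Rps followed directly by a digit, together with Rplp0, Rplp1, Rplp2 and Rpsa, leaving out the Rps6k kinases and symbols marked as pseudogenes. The rule gave 86 of the 19865 symbols in the count tables. By symbol, 50 were assigned to the large subunit and 34 to the small subunit. Another 2 carry a ribosomal protein name but have other roles. They are Rps19bp1, which encodes a protein that binds Rps19, and Rpl7l1, a paralog of Rpl7 linked to ribosome assembly. The 50 and 34 include Rpl37rt and Rps4l, annotated as transcribed processed pseudogenes, and Rps12l2, for which no annotation was found. Of the 86, 80 had enough counts to be tested.

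Counts came from primary lung fibroblasts of Col1a2-GFP transgenic mice, a line in which the Col1a2 collagen promoter drives a green fluorescent protein. The cells carried a retroviral control vector (3 control libraries) or the active form of Srebf1c (3 trSrebf1 libraries), both with the surface marker hLNGFR. They were placed in the airways of C57BL/6 mice on day 5 after 2 mg/kg of bleomycin, which injures the lung. Doxycycline, which the labels record for both groups and which induces trSrebf1, was given on day 7. Donor cells were sorted on day 10 as GFP- and hLNGFR-positive cells lacking CD31, CD45, EpCAM, CD146 and Ter119, and 10000 cells went into each 3'SAGE-seq library, an assay that counts tags near the 3' end of polyadenylated RNA. The age and sex of the mice, and whether replicates came from separate mice or cultures, are not given, so the p-values here reflect how much these libraries vary, and that variation may be technical.

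Each ribosome holds 1 copy of nearly every ribosomal protein, and the stalk proteins Rplp1 and Rplp2 are the known exception in copy number. Most ribosomal protein mRNAs start with a tract of pyrimidines, the 5' terminal oligopyrimidine (TOP) motif, through which mTOR complex signalling and the RNA-binding protein Larp1 control their translation and stability. The genes have many processed pseudogenes, copies of the mRNA in the genome that share much of its sequence.

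Libraries held 3675146 to 4688196 counts. Srebf1, whose tags may come from the endogenous gene or the transgene, stood at 5.13 to 8.35 CPM, counts scaled to a library total of 1000000, in control and 24.5 to 31.1 CPM in trSrebf1 libraries. Ctsd, which encodes the lysosomal protease cathepsin D, made up 0.92% of all control counts and 6.71% of those from trSrebf1 cells, so fold changes were computed with scaling factors (TMM) that allow for such shifts. The 7 fibroblast markers were present in every library at a summed 20132 to 33522 CPM, with 6 of 7 lower in trSrebf1. Macrophage (3 of 5 in the tables), epithelial, endothelial and erythroid markers each summed to at most 5.65 CPM in any library, with at most 1 count of Epcam or Pecam1. The 5 pericyte and smooth muscle markers summed to 95.0 to 113 CPM in control and 250 to 296 CPM in trSrebf1 libraries, with Pdgfrb and Cspg4 higher and Myh11 lower, while Mcam, which encodes CD146, was at or below 1.28 CPM and Rgs5 had at most 1 count. The part of these levels in the results below was not tested. In a bulk sample, fewer cells of a type and less RNA per cell cannot be told apart, and CPM values are shares of a library, so they give no amount per cell.

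Control replicate 1 stood apart from its group in this gene family. With 1 CPM added to each value, 28 of 80 tested members were at less than a log2 ratio of -1 in control replicate 1 against the mean of control replicates 2 and 3, compared with 2.60% of the 10114 other tested genes. The members' median ratio was -0.65 and that of the other genes -0.0025. The same ratio for each of the other 5 libraries fell under -1 in at most 1 of the 80 members. Counts over the members are therefore given with and without that library.

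RefSeq promoter entries (build GRCm38.p6) were found for 64 of the 86 members. A C followed by 6 or more bases that are each C or T, starting within 10 bases of the annotated start on the transcribed strand, was present in 28 of these 64 (43.8%) and in 3821 of 27025 genes with an entry (14.1%). The search was for letters near an annotated start, which can lie some bases from the true start. The sequences below show 4 members with such a tract and Rps27l, the member that rose, from 40 bases before to 20 bases after the start, with the tract in capitals.
Rps6, chr4:86857348-86857407, minus strand: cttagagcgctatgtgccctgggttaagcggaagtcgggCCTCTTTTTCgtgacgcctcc
Rpl15, chr14:18270967-18271026, minus strand: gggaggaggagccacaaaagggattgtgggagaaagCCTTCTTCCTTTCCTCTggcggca
Rps12, chr10:23787190-23787249, minus strand: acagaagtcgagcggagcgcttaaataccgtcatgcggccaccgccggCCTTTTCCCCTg
Rps27, chr3:90213629-90213688, minus strand: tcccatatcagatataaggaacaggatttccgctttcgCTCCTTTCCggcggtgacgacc
Rps27l, chr9:66946046-66946105, plus strand: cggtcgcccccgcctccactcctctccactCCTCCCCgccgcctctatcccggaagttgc
The tracts of Rps6, Rpl15 and Rps27 cover the start, whereas that of Rps27l lies wholly before it and that of Rps12 wholly after it. The motif TCACNCCAC, a form of the sterol regulatory element that SREBP proteins bind, was searched on both strands over the 300 bases of each entry. It was found in 1 of 64 members (1.56%), Rps27l, downstream of its second annotated start, and in 1.44% of all genes with an entry.

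Levels across the family spanned a wide range. Mean CPM over the 6 libraries ran from 2.67 to 12352 among the 80 tested members, a 4624-fold range, with a median of 50.2 over all 86. The lowest of these, Rps19bp1, has another role, and the lowest tested member assigned to a subunit was at 4.76 CPM. The assay counts tags near 3' ends, so levels were not divided by transcript length. Each end is captured and assigned with its own efficiency, and the values are levels of counted tags and not of transcript copies.

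Rpl8, a large-subunit protein near the peptidyl transferase centre, had the highest mean, at 12352 CPM. Rpl5, which joins the 5S ribosomal RNA, followed at 10231 CPM. Rpl10a and Rps2 had 6776 and 5748 CPM. The 5 highest members held 63.3% ± 3.28 of the family's CPM in control libraries and 61.9% ± 0.61 in trSrebf1 libraries (SD, n = 3 each). Levels of 1000 CPM or more were found in 14 members, and 13 had 100 to under 1000, 41 had 10 to under 100, and 18 had under 10. Over the 6 libraries Rpl10a ran from 5260 to 8132 CPM and Rps2 from 4455 to 7528, but within each library Rpl10a was the higher. Other neighbours in this order were not always separable. Rpl29 and Rpl37a stood at 1844 and 2131 CPM in control replicate 2, but at 1605 and 1516 CPM in trSrebf1 replicate 1.

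**Figure D1:**
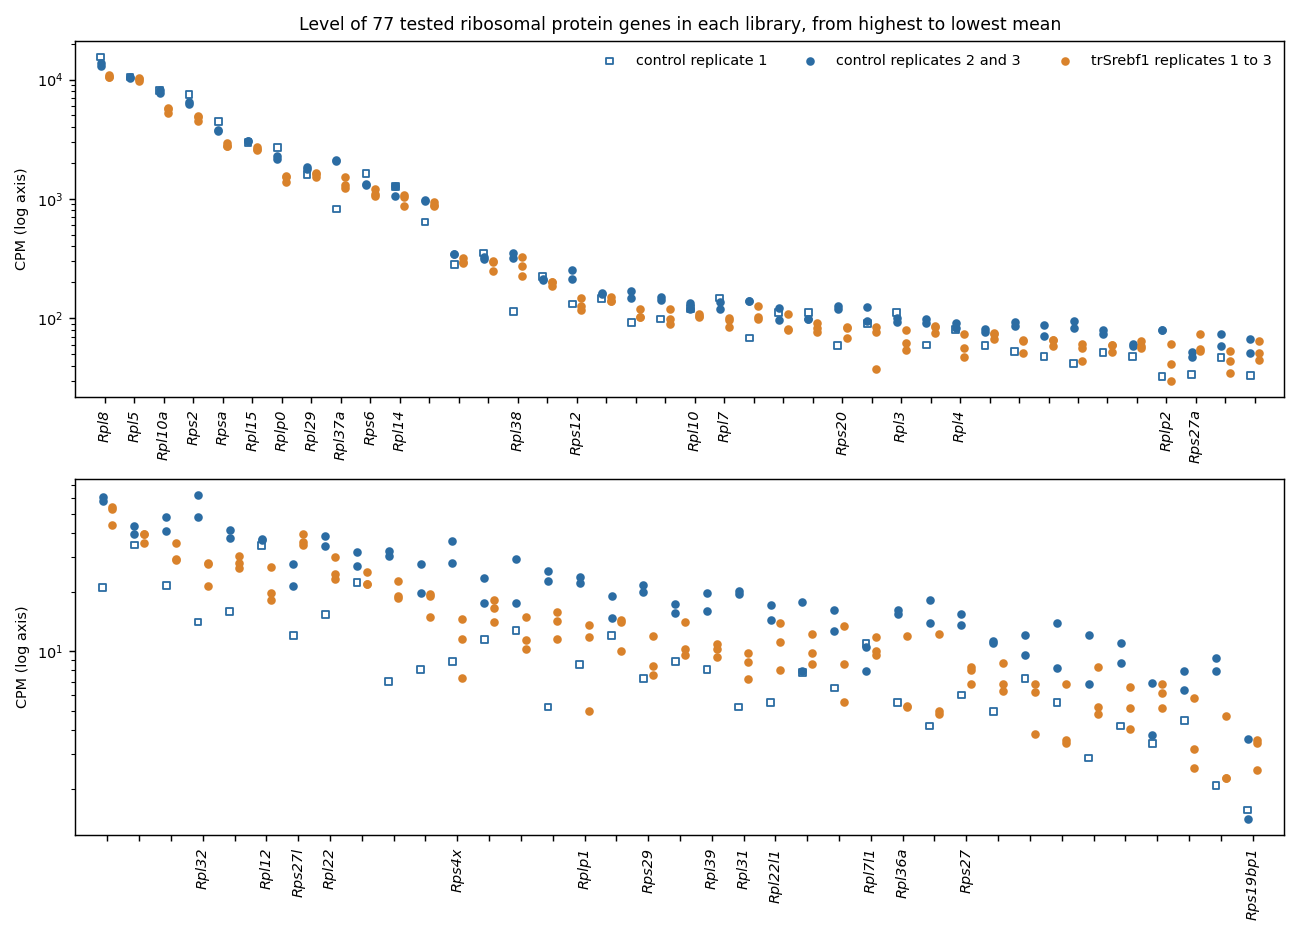
CPM of 77 tested members in each library on a log axis, ordered by mean level, with names for those described here. Open squares are control replicate 1, filled blue points control replicates 2 and 3, and orange points the 3 trSrebf1 libraries. Levels fall from 12352 CPM for Rpl8 to 2.67 for Rps19bp1, and control replicate 1 lies below the other control libraries for many members in the lower panel.

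The family's summed level was lower in trSrebf1 than in control fibroblasts. It was 72751, 74538 and 72620 CPM in control replicates 1 to 3 and 61122, 58926 and 58939 CPM in trSrebf1 replicates 1 to 3. The groups did not overlap, and trSrebf1 stood at 0.81 times control. As a share of raw counts, which Ctsd and other abundant genes also move, the family held 7.52% ± 0.37 of control libraries and 5.82% ± 0.24 of trSrebf1 libraries (SD, n = 3 each). On the log2 scale the sum differed by -0.30, and by -0.30 without control replicate 1.

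Of the 80 tested members 12 fell and 1, Rps27l, rose in trSrebf1 (edgeR, quasi-likelihood, adjusted p under 0.05 by Benjamini-Hochberg over 10194 genes). That is 15.0% of members called lower beside 13% of all tested genes, and 1 of 80 called higher beside 17.2% of all. The members' share called lower was close to that background. The fold change was below 0 for 69 of the 80 members and for 50.7% of all tested genes. The number of members below 0 was 74, 60 and 62 without control replicates 1, 2 and 3, and 65 in limma. With all libraries the median in edgeR was -0.31 for the members and -0.013 for all. Control and trSrebf1 libraries did not overlap in 19 members that were lower and 2 that were higher (23.8% and 2.50%, beside 20.2% and 23.1% of all tested genes). Without control replicate 1, 39 members fell and 1 rose, with 48.8% lower beside 11.6% of the 10627 genes tested and 1 of 80 higher beside 16.3%. The members' median then was -0.48. Of the 12 that fell in the full set, 11 fell in that fit too and 28 others joined them. Control replicate 1 was set apart by its low values in these members. Leaving it out raises the control mean of many of them and narrows the control spread. The larger counts of falls without it, here and below, follow in part from that choice.

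**Figure D2:**
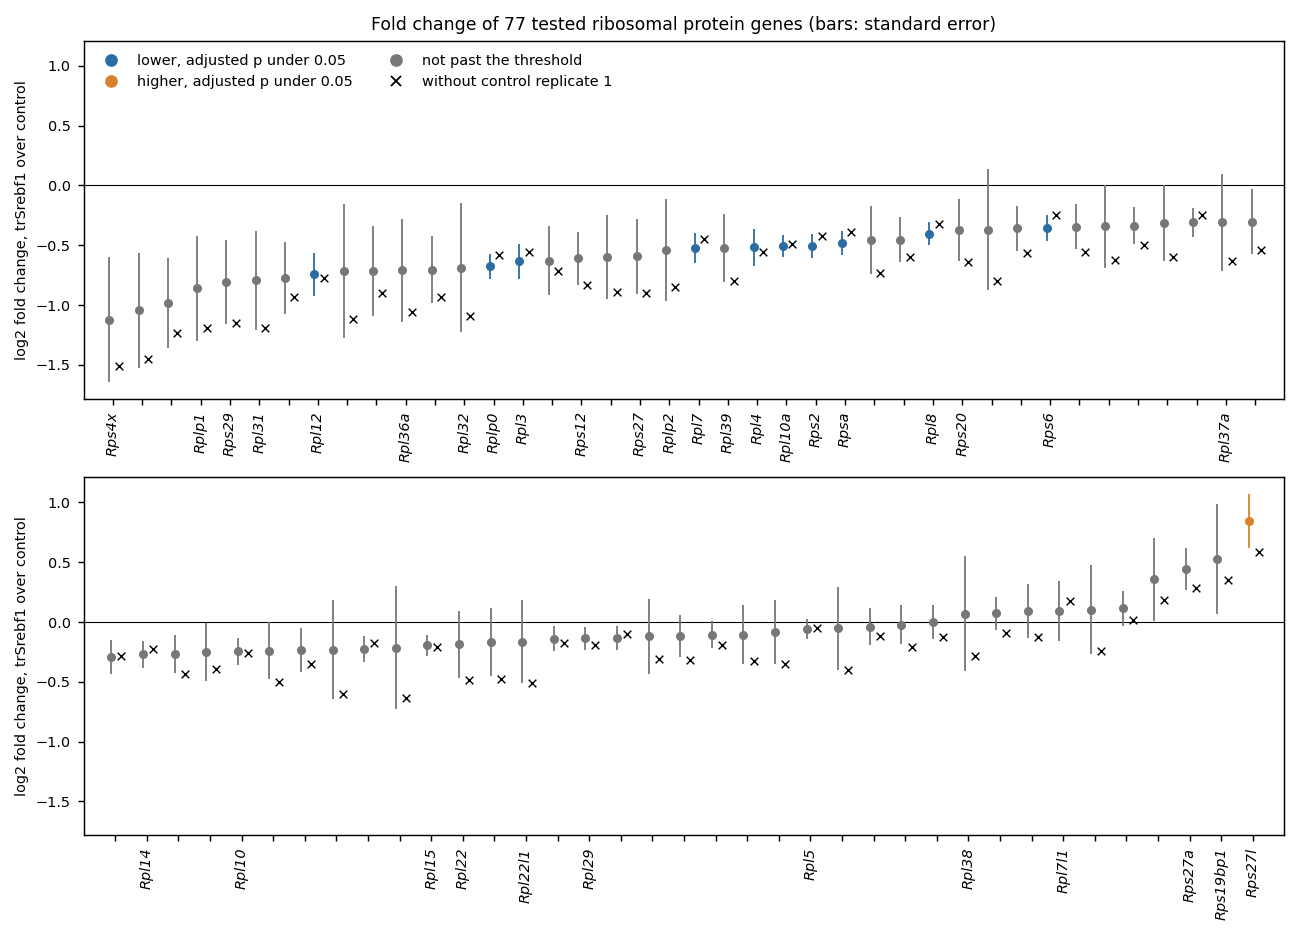
Log2 fold change of trSrebf1 over control with its standard error for 77 tested members, ordered by value, with names for those described here. Blue and orange points passed the threshold (10 lower, 1 higher), grey points did not, and crosses are the values without control replicate 1, which lie further below 0 for many members of low level.

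The count of falls differed by level. Of the 14 members with 1000 CPM or more 8 fell, against 34.4% of the 128 tested genes of that level. In the tier of 100 to under 1000 CPM 1 of 13 fell (19.9% of all tested genes of that level), and in that of 10 to under 100 CPM 3 of 41 fell and 1 rose (14.6% of all lower). Under 10 CPM 0 of 12 tested members passed in edgeR, beside 8.96% of all lower (3 lower at an unadjusted p under 0.05, and 0 in DESeq2 or limma). The medians of these tiers were -0.33, -0.23, -0.27 and -0.65, while their median standard errors were 0.10, 0.14, 0.26 and 0.38. Without control replicate 1 the numbers that fell were 8 of 14, 4 of 13, 20 of 41 and 7 of 12. The subunits had like counts, with 5 of 33 small-subunit and 7 of 45 large-subunit members lower, and medians of -0.32 and -0.30. These counts were 17 of 33 and 22 of 45 without control replicate 1, with medians of -0.48 and -0.49.

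In the small subunit, Rps2 (chromosome 17, 24718116 to 24721929, plus strand), a protein of the mRNA entry side of the small subunit, was at 7528, 6267 and 6455 CPM in control and 4937, 4848 and 4455 CPM in trSrebf1. Every trSrebf1 library was below every control library, and it fell by 0.51 (SE 0.10, adjusted p = 6.92e-04).

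Rpsa (chromosome 9, 120127689 to 120132369, plus strand) encodes a small-subunit protein also described as a laminin receptor at the cell surface. Its values were 4431, 3748 and 3704 CPM in control and 2759, 2790 and 2945 CPM in trSrebf1, with no overlap, and it fell by 0.48 (SE 0.10, adjusted p = 0.00106). Rps6, the substrate of the S6 kinases downstream of mTOR, was singled out once its values were known. It went from 1636, 1314 and 1341 CPM to 1105, 1199 and 1049 CPM, by 0.36 (SE 0.11, adjusted p = 0.0183). This call was lost without control replicate 1 (0.0659) and without trSrebf1 replicates 1 (0.0703) and 3 (0.100), and the lowest adjusted p was 0.00182.

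In the large subunit, the stalk base protein Rplp0 (chromosome 5, 115559467 to 115563727, plus strand), which anchors Rplp1 and Rplp2, fell from 2683, 2299 and 2168 CPM to 1373, 1569 and 1527 CPM. The log2 fold change was -0.68 (SE 0.11, adjusted p = 8.38e-05), and every trSrebf1 library was below the control libraries. Rpl8 (chromosome 15, 76904078 to 76906314, plus strand) fell by 0.40 (SE 0.09, adjusted p = 0.00289), from 15466, 13771 and 12954 CPM to 10873, 10541 and 10508 CPM. Its 3 trSrebf1 values lay close together and below the lowest control value. Rpl10a (chromosome 17, 28328471 to 28331033, plus strand) fell by 0.51 (SE 0.09, adjusted p = 3.11e-04), from 8099, 8132 and 7649 CPM to 5829, 5689 and 5260 CPM.

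The other 4 large-subunit members that fell were of middle or low level. Rpl12 (chromosome 2, 32961559 to 32965345, plus strand), which sits at the stalk base, was at 34.4, 37.0 and 37.1 CPM in control and 26.8, 19.7 and 18.2 CPM in trSrebf1 and fell by 0.74 (SE 0.18, adjusted p = 0.00396). Rpl3, a core protein of the peptidyl transferase region, fell by 0.64 (SE 0.15) from 112, 99.9 and 93.2 CPM to 80.3, 61.6 and 54.5 CPM. For both, the groups did not overlap. Rpl7 fell by 0.52 (SE 0.12), from 135 ± 13.6 to 93.7 ± 8.42 CPM, and Rpl4 by 0.52 (SE 0.16), with 85.1 ± 5.68 against 59.4 ± 13.3 CPM (SD, n = 3 per group). The call of Rpl4 (adjusted p = 0.0168) was lost without control replicate 2 (0.0670) and without trSrebf1 replicates 2 (0.0533) and 3 (0.0988), and the lowest adjusted p was 0.00346.

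**Figure D3:**
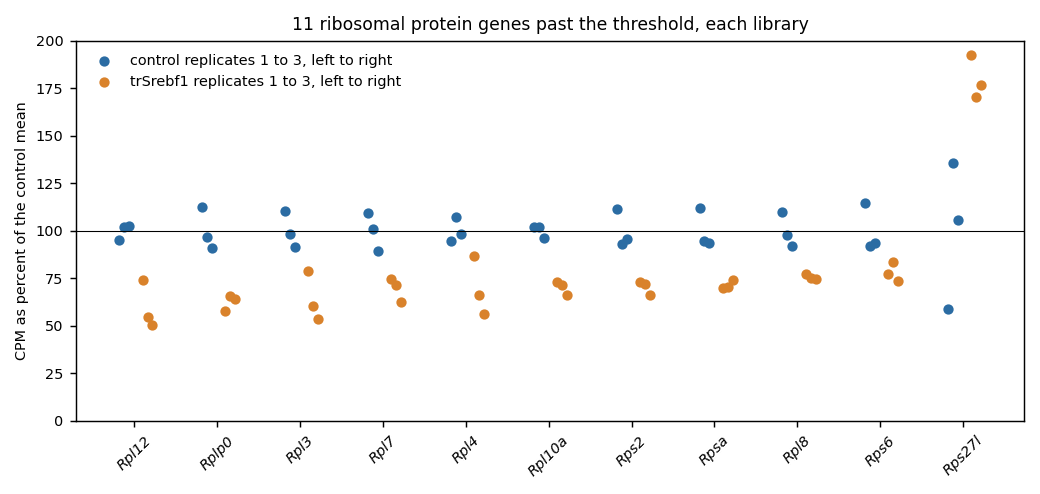
CPM of 11 members past the threshold in each library, as a percent of the control mean, with blue points for control and orange points for trSrebf1 replicates 1 to 3 from left to right. All orange points lie below all blue points of the same gene for the 10 that fell and above them for Rps27l.

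Not every abundant member passed. Rpl5 was at 10509, 10238 and 10559 CPM in control and 9748, 10058 and 10276 CPM in trSrebf1. The groups overlapped and the log2 fold change was -0.06 (SE 0.09, adjusted p = 0.669). Rpl15, named after its values were seen, had -0.20 (SE 0.09, adjusted p = 0.119) although its libraries did not overlap. It passed under upper-quartile factors (0.0468) or total-count scaling (0.0181). Rpl29 and Rpl14 had -0.14 (SE 0.10) and -0.27 (SE 0.11) and did not pass, but Rpl14 passed under the same pair of scalings (0.0280 and 0.0250) and without control replicate 3 (0.0425). The difference between these members and those that fell was not tested.

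Tags of many members cannot be tied to 1 locus with certainty. Of the 85 members with a transcript, 71 shared an identical stretch of 30 bases in their last 300 bases with another annotated gene. Rplp0 and Rpl12 shared none, and 98.2% and 69.4% of the 30-base windows of Rpl4 and Rpl8 were in no other gene. In contrast this share was 11.8% for both Rps2 and Rpl10a, 15.5% for Rps6, 24.0% for Rpsa and Rpl7 and 19.6% for Rpl3, so their values are uncertain by the part that the counting may have split among copies. Of 27 tested members with 50% or more of such windows to themselves 5 fell and 1 rose (median -0.25), and of 52 with less 7 fell (median -0.34). Leaving out control replicate 1, 12 and 27 fell (medians -0.39 and -0.50). A total of 13 rows with pseudogene symbols of the family, left out by the rule, held 0.103% to 0.170% of the counts of a library.

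Rps27l was the single member that rose. It encodes a paralog of the small-subunit protein Rps27 and is known as a target of the transcription factor p53. Its counts were 46, 108 and 92 in control and 184, 138 and 159 in trSrebf1 libraries. On the CPM scale these were 12.0, 27.7 and 21.6 against 39.4, 34.8 and 36.1, so the groups did not overlap. It rose by 0.85 on the log2 scale (SE 0.23, adjusted p = 0.00958, and 8.86e-05 to 0.0438 over the alternatives), and by 0.58 without control replicate 1 (adjusted p = 0.0217). The gene lies on chromosome 9, 66946086 to 66949516, plus strand, and 68.6% of its 3' windows were in no other gene.

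Its paralog Rps27 did not pass, at 6.00, 15.4 and 13.6 CPM in control and 8.35, 8.08 and 6.82 CPM in trSrebf1 (log2 fold change -0.59, SE 0.31, adjusted p = 0.172). It passed without control replicate 1 (-0.90, adjusted p = 0.0155). All 30-base windows of its 3' end occur in other genes, so its level is uncertain. Within a library, where scaling cancels, the ratio of Rps27l to Rps27 tags was 2.00, 1.80 and 1.59 in control and 4.72, 4.31 and 5.30 in trSrebf1. The ratio of control replicate 1 lay close to those of its group, whereas its levels of both genes were the lowest of the control libraries. The difference between these ratios was not tested.

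Other listed paralogs had low or middle levels. Rpl22, an RNA-binding large-subunit protein, had 15.4, 34.4 and 38.7 CPM in control and 23.3, 24.7 and 30.0 in trSrebf1 (log2 fold change -0.19, SE 0.28). Its paralog Rpl22l1 had 5.48, 14.4 and 17.1 against 11.1, 8.08 and 13.9 CPM (-0.16, SE 0.34). In both, control replicate 1 was the lowest of the 6 libraries, and the sign of both turned without control replicate 3, to 0.05 and 0.14, and that of Rpl22l1 also without trSrebf1 replicate 2, to 0.01. Rps4x, the X-linked form of Rps4, had 8.87, 28.0 and 36.4 against 14.6, 7.32 and 11.6 CPM, with the lowest log2 fold change of the 80 tested members (-1.12, SE 0.52, adjusted p = 0.169). It passed without control replicate 1 (-1.51, adjusted p = 9.11e-05) and with no filter on low counts (adjusted p = 0.00368).

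Rpl36a and Rpl39 had log2 fold changes of -0.71 (SE 0.43) and -0.52 (SE 0.28) and passed without control replicate 1, with adjusted p of 0.0197 and 0.0178. Rpl10, which completes the late large subunit, had -0.25 (SE 0.11, adjusted p = 0.119), and passed under upper-quartile factors (0.0415) or total-count scaling (0.0464). Rpl7l1 had 0.09 (SE 0.25). Rpl10l was not analysed here.

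The copies Rpl36al, Rps4l, Rpl39l, Rpl3l and Rpl37rt, and Rpl6, had too few counts for the test. Rpl36al had 6, 25 and 6 counts in control and 11, 3 and 7 in trSrebf1 libraries. Rps4l, annotated as a transcribed processed pseudogene, had 8, 13 and 8 counts against 2, 0 and 5. Rpl6, a core large-subunit gene with no 3' window shared with another gene, had 4, 1 and 0 against 0, 0 and 9 counts. Rpl39l had 2 counts in control replicate 1 and 0 elsewhere, Rpl3l, the muscle form of Rpl3, had 1 count in trSrebf1 replicate 2 and 0 elsewhere, and Rpl37rt had 0 to 2 counts in each library. Rps4l, whose groups did not overlap, passed as lower with no filter on low counts (log2 fold change -2.12, adjusted p = 0.0262), the single setting in which these genes were tested, and the others did not pass there (0.271 to 0.785).

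The stalk proteins Rplp1 and Rplp2, which recruit translation factors, had mean levels of 14.2 and 54.1 CPM, and Rplp0 1937. Rplp1 had 8.61, 22.3 and 23.9 CPM in control and 11.8, 13.6 and 5.00 in trSrebf1 (log2 fold change -0.86, SE 0.44, adjusted p = 0.183). Rplp2 had 32.4, 80.1 and 79.8 against 60.6, 41.7 and 30.0 CPM (-0.54, SE 0.43, adjusted p = 0.422). In both, control replicate 1 lay within the trSrebf1 range and control replicates 2 and 3 above it. Without control replicate 1 both passed, at -1.19 (adjusted p = 0.00614) and -0.85 (0.0114), and Rplp1 also passed with no filter on low counts (0.00469).

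The low values in control replicate 1 moved with transcript length. Over 79 tested members the Spearman correlation between the log2 ratio of control replicate 1 to the other controls and the length of the annotated transcript was 0.69, given as a description across genes that share a library. It was 0.017 over 9417 other genes. By length, the median ratio of the members was -1.15 for 29 transcripts under 600 bases, -0.45 for 33 of 600 to under 1000 and -0.10 for 15 of 1000 to under 2000. For other genes of the same lengths it was -0.49 (203 genes), -0.09 (511) and 0.03 (2009). The ratio of CPM was under 0.5 for 23 of the 29 members under 600 bases and for 7 of the other 50. Short transcripts outside the family were also low in that library, by less. The part of this in the results was not tested.

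**Figure D4:**
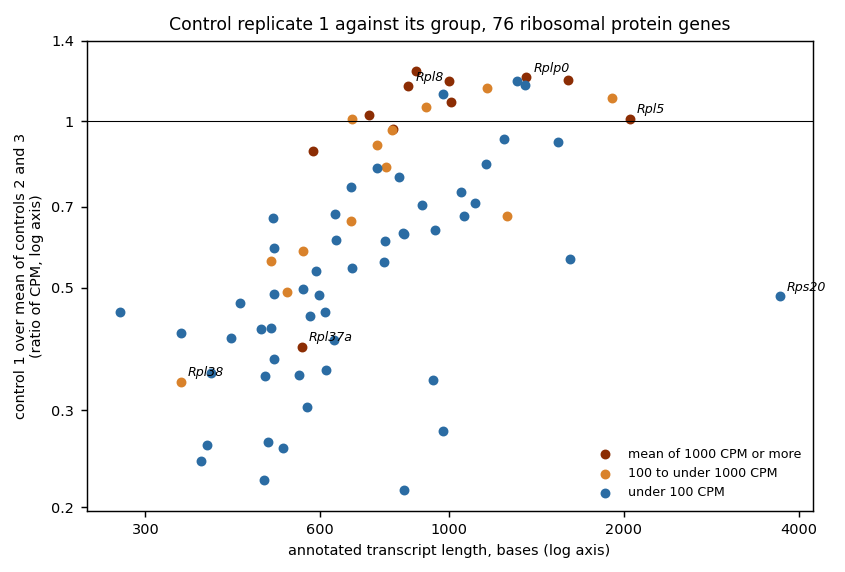
Ratio of CPM in control replicate 1 to the mean of control replicates 2 and 3 against annotated transcript length, both on log axes, for 76 tested members coloured by mean level. Most members under 600 bases lie below 0.5, and Rps20, whose chosen annotated transcript is the longest, also does.

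The members given next for their values in control replicate 1 were named after those values were seen. Rpl37a, a short large-subunit gene, had 823, 2131 and 2082 CPM in control and 1516, 1311 and 1236 in trSrebf1. With all libraries its log2 fold change was -0.31 (SE 0.41, adjusted p = 0.646), and without control replicate 1 it was -0.63 (adjusted p = 5.30e-05). Rpl38 had 114, 354 and 320 against 324, 227 and 275 CPM, and its sign turned without control replicate 1 from 0.07 to -0.29 (adjusted p = 0.117), and also under upper-quartile (-0.011) and total-count (-0.013) scaling and without trSrebf1 replicate 1. Rpl32 (-0.69, and -1.09 without control replicate 1), Rpl31 (-0.79 and -1.19) and Rps29 (-0.81 and -1.15) did not pass with all libraries and passed without it. With no filter on low counts Rpl31 and Rps29 also passed with all libraries.

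The 28 members called lower only without control replicate 1 had means from 4.76 to 1517 CPM. The 12 that fell with all libraries were all among the 26 tested members whose control replicate 1 differed from the mean of control replicates 2 and 3 by no more than a factor of 0.8 or its inverse, a set chosen after the values were seen. A member far lower in control replicate 1 has a wide control spread and a lowered control mean. It can hardly pass as lower, so this overlap follows largely from how the set is defined.

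Rps27a, which encodes a small-subunit protein fused to ubiquitin, had 33.9, 52.6 and 46.9 CPM in control and 73.2, 55.3 and 53.2 in trSrebf1. The groups did not overlap, but the log2 fold change of 0.45 (SE 0.18) did not pass (adjusted p = 0.0698). It passed without control replicate 2 (0.0435) and when low counts were not filtered (0.0271). Rps19bp1 had 0.53 (SE 0.46).

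Genes that work with the ribosome were taken from lists. Of 3 ribosomal proteins whose symbols lie outside the rule, 0 passed: Gnb2l1, the scaffold also called Rack1, had -0.22 (SE 0.10, adjusted p = 0.104) and Fau -0.35 (SE 0.19). Gnb2l1 passed under upper-quartile factors (0.0447) or total-count scaling (0.0136), and Fau without control replicate 1 (0.0491). At an unadjusted p under 0.05, 1 of the 3 was lower, and 0 passed in DESeq2 or limma.

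Elongation factors and other TOP mRNAs fell in 7 of 18 tested cases (38.9%, beside 13% of all tested genes) and rose in 0 (beside 17.2% of all), with a median of -0.33 (edgeR, with 1 higher at an unadjusted p under 0.05, and 0 higher in DESeq2 or limma). Tpt1, a translationally controlled growth protein, fell from 1460, 1639 and 1250 CPM to 890, 656 and 764 CPM (log2 fold change -0.91, SE 0.13, adjusted p = 2.69e-05). Nap1l1, a histone chaperone, fell by 0.95 (SE 0.20), and Vim, the intermediate filament vimentin, by 0.61 (SE 0.13). The others that fell were Hnrnpa1, Npm1, Btf3 and Eef1b2, by 0.65, 0.61, 0.92 and 0.47. Hnrnpa1, Npm1 and Btf3 lost their calls without trSrebf1 replicate 2 (adjusted p = 0.0630, 0.0695 and 0.108). The first pair also lost them without trSrebf1 replicate 3 (0.0628 and 0.0689), Npm1 and Btf3 without control replicate 2 (0.0874 and 0.0782), and Btf3 without control replicate 3 (0.0871). The call of Eef1b2 (adjusted p = 0.0422) was lost in 9 of 16 alternatives, DESeq2, limma and the replicate block among them, with adjusted p up to 0.202. The elongation factors Eef1a1 and Eef2, named after their values were seen, had -0.09 (SE 0.09) and 0.24 (SE 0.10) and did not pass. Eef2 passed as higher without control replicate 1 (0.0297), where 7 of the list fell and 1 rose, and under total counts without Ctsd (0.0312), with adjusted p up to 0.323 in the other alternatives.

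Translation initiation factors rose in 8 of 32 cases (25%, beside 17.2% of all tested genes) and fell in 2 (6.25%, beside 13%), with a median of 0.08. In the fit without control replicate 1, 6 rose and 1 fell. Eif2s3x, a subunit of the factor that brings the initiator tRNA, rose by 1.14 (SE 0.19, adjusted p = 1.47e-04), and Eif5b and Eif5 by 0.61 (SE 0.12) and 0.67 (SE 0.17). Eif4a2, an RNA helicase, fell by 0.85 (SE 0.23) and Eif4g2 by 0.28 (SE 0.10). The call of Eif4g2 (adjusted p = 0.0463) was lost in 11 of 16 alternatives, among them DESeq2 (0.0730), the replicate block (0.0922) and each fit with 1 library left out (0.0527 to 0.189). Ribosome biogenesis and nucleolar genes had 4 of 48 higher (8.33%, beside 17.2% of all) and 2 lower (4.17%, beside 13%), with a median of 0.00027. With control replicate 1 left out, 5 rose and 3 fell. Nop16, a nucleolar protein of large-subunit assembly, rose from 9.91, 8.73 and 10.8 CPM to 73.4, 49.7 and 59.8 CPM (log2 fold change 2.63, SE 0.19, adjusted p = 1.27e-08). Bysl and Mphosph10, of small-subunit assembly, rose by 1.27 (SE 0.16) and 0.88 (SE 0.17) and nucleolin (Ncl) by 0.52 (SE 0.14), while Emg1 and Wdr75 fell by 0.41 and 0.55. The call of Wdr75 (adjusted p = 0.0170) was lost without control replicate 2 (0.0597) and without trSrebf1 replicate 3 (0.0971).

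Of 11 tested genes of RNA polymerase I, which transcribes ribosomal RNA, 0 passed in edgeR, 0 had an unadjusted p under 0.05, and 0 passed in DESeq2 or limma (median -0.037). Of the 15 tested without control replicate 1, 1 fell (6.67%, beside 11.6% of all tested genes) and 0 rose. Polr1a, the catalytic subunit, had -0.53 (SE 0.27, adjusted p = 0.164). In the list of the mTOR pathway and TOP mRNA regulators 7 of 20 rose (35.0%, beside 17.2% of all tested genes) and 2 fell (10.0%, beside 13%), with a median of 0.30. In the fit without control replicate 1, 6 rose and 1 fell. Tsc1, a subunit of the complex that restrains mTOR complex 1, rose from 15.4, 20.3 and 24.4 CPM to 67.2, 65.1 and 63.6 CPM (log2 fold change 1.70, SE 0.17, adjusted p = 6.79e-07). The kinase gene Rps6ka1 rose by 1.46 (SE 0.17) and Larp1, which binds TOP mRNAs, by 0.84 (SE 0.16). Sesn2, a stress-induced inhibitor of mTOR complex 1, rose by 0.71 (SE 0.14) and the complex subunit Rptor by 0.71 (SE 0.24), while Myc, a transcriptional activator of ribosome genes, fell by 1.11 (SE 0.29) from 9.47 ± 1.39 to 4.37 ± 0.55 CPM (SD, n = 3 each). Rps6ka4, another kinase gene of the list, fell by 0.75 (SE 0.26, adjusted p = 0.0344). That call was lost in 9 of 16 alternatives, with adjusted p up to 0.0984. Mtor itself had -0.21 (SE 0.26). The call of Rptor (adjusted p = 0.0346) was lost in 9 of 16 alternatives, among them upper-quartile factors (0.0572), total counts (0.0631), DESeq2 (0.0778), the replicate block (0.0518) and the fits without control replicates 1 (0.0753) and 3. These mRNA levels give no measure of the activity of these kinases.

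Mitochondrial ribosomal protein genes build the separate ribosome of that organelle. Of 62 tested 5 rose (8.06%, beside 17.2% of all tested genes) and 2 fell (3.23%, beside 13%), and the median was -0.0046. Mrps6, Mrpl38 and Mrps2 rose by 1.45 (SE 0.33), 1.21 (SE 0.28) and 0.55 (SE 0.13), as did Mrpl41 and Mrps22, while Mrpl12 fell by 0.36 (SE 0.10) and Mrpl49 by 0.67 (SE 0.23). The calls of Mrps22 (adjusted p = 0.0439) and Mrpl49 (0.0334) were lost in 10 and 6 of 16 alternatives, DESeq2 among them for both (0.0773 and 0.0528), with adjusted p up to 0.185 and 0.166. Mrpl41 was lost without control replicate 1 (0.0616) and without trSrebf1 replicate 1 (0.0945), and Mrpl12 without trSrebf1 replicate 1 (0.0692). Without control replicate 1 their median was -0.04, with 3 higher and 1 lower. The difference between the families was not tested.

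**Figure D5:**
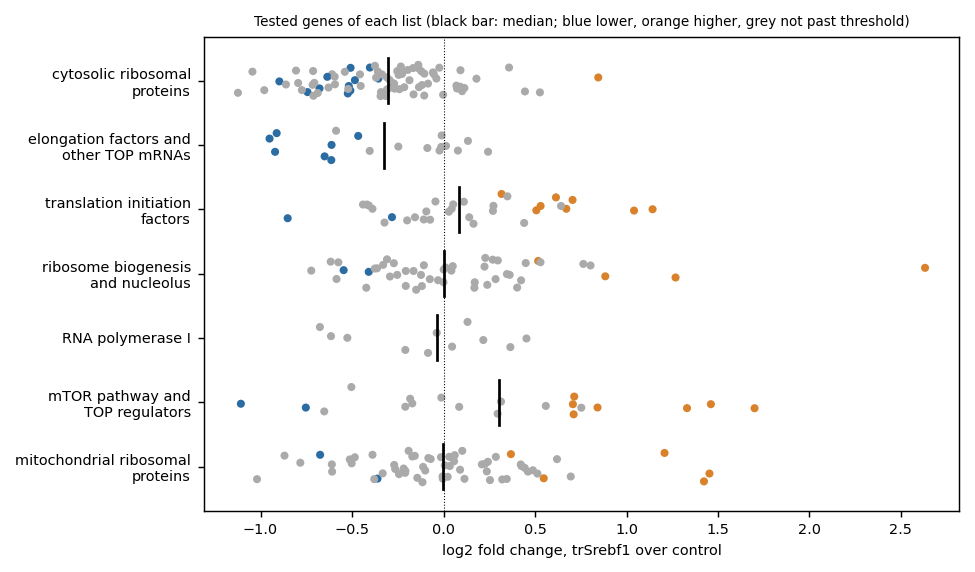
Log2 fold change of trSrebf1 over control for each tested gene of 7 lists, with the median as a black bar, blue for lower, orange for higher and grey for genes not past the threshold. The medians of the cytosolic ribosomal proteins (-0.31) and of the elongation factors and other TOP mRNAs (-0.33) lie below 0, those of ribosome biogenesis and mitochondrial ribosomal proteins lie near 0, and that of the mTOR list is 0.30.

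Counts were also taken by the pyrimidine tract. Of 27 tested members with the tract 2 fell and 1 rose (median -0.21), and of 32 without it 5 fell (median -0.31). The numbers were 11 of 27 and 13 of 32 without control replicate 1 (medians -0.35 and -0.41). Among those that fell, Rps6 and Rpl10a had the tract near an annotated start, and Rplp0, Rpsa, Rps2, Rpl4 and Rpl12 did not. The tract of Rpl10a lies wholly before its first annotated start, and none was found near its second. A gene without a match in this search is not shown to lack a TOP motif.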

How the data were processed

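Counts per gene symbol, 1 table per library, were used as the authors deposited them, with no normalization. Bowtie2 2.2.5 and mm10 are named, without role, per the submitters' processing notes. How reads were assigned to genes, with which annotation and whether by strand, is not given in the sources used here, so near-identical and overlapping genes are uncertain. The fit used edgeR 4.0.16 (R 4.3.3): filterByExpr with a minimum count of 10 and total of 15, TMM factors, robust glmQLFit and glmQLFTest, group as the only term, prior count 0.125, and two-sided p-values adjusted by Benjamini-Hochberg over all 10194 genes tested. The SE is the log2 fold change divided by the square root of F. CPM used TMM-scaled library totals. DESeq2 1.42.0 and limma 3.58.1 (voom) served as alternatives. The edgeR fit was tried on simulated counts with equal dispersion in all genes and no deviating library. That trial is therefore no check on how the fit handles control replicate 1. Positions, transcripts and 30-base windows came from GENCODE M21 (GRCm38), and promoters from RefSeq. Lengths and windows used 1 annotated transcript per gene, which may not be the form that was counted. Between libraries of a group, chi-square per degree of freedom over genes was 4.52 to 8.13, more than sampling gives, so each counted as a separate library. Members and lists were chosen with earlier results of these data known. Values were given by rule for members past the threshold (up to 10 rises and 10 falls with the largest fold change), the 5 members with the highest and 5 with the lowest mean CPM, the stalk genes with Rpsa, the listed paralogs, up to 3 tested genes of each other list with the smallest unadjusted p, and Srebf1 and Ctsd. Of those past this rule, such as Rps6, Rpl37a and the further genes of each list, values had been seen when they were chosen. Some members that the rule covers are not reported here by name, but they stay in all counts and sums.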

Additional observations from a re-analysis of the deposited data

How the results depend on the processing

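The number of members that fell was 12 with all libraries and 24 with upper-quartile factors, 24 with no filter on low counts, and 9 to 39 when 1 library was left out, the highest without control replicate 1 (39) and the others 9 to 13. The number that rose was 1, 2 with no filter on low counts and 1 to 2 when 1 library was left out. The other scalings, filters and tests gave 12 to 17 lower and 1 higher. The median log2 fold change of the members was -0.31, and -0.48 to -0.20 when 1 library was left out. The log2 ratio of summed levels was -0.30, with -0.38 for upper-quartile factors and -0.37 for total counts. The median of all tested genes moved by at most -0.08 with scaling. Turns of sign were followed only for the members described by name, and other members turned too. The number of members below 0 went from 69 to 71 with upper-quartile factors or total counts. Of those named, Rpl38 turned there (-0.011 and -0.013). With 1 library left out, 60 to 74 members were below 0. Of those named, log2 fold changes then ran from -0.49 to 0.053 for Rpl22 and -0.51 to 0.14 for Rpl22l1. They ran from -0.29 to 0.34 for Rpl38 and -0.040 to 0.18 for Rpl7l1, and these values of turned sign did not pass. The cause was not tested. Same-numbered libraries did not deviate together (correlations 0.0026, -0.12 and -0.063), so the numbers were not taken as pairs. With the replicate block 11 members fell and 1 rose, against 12 and 1 without it, so 1 call was lost. Over all genes 1174 fell and 1646 rose with the block. Counts under about 10 CPM leave standard errors near 0.38, which limits what can be seen there.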
